A study of Homo sapiens with 6 samples.

Results

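The histone genes, clustered and variant, were taken as all genes whose annotated symbol begins with H1-, H2A, H2B, H3C, H3-, H4C or H4-, with MACROH2A1 and MACROH2A2 added. The rule found 84 genes on 115 probe sets, out of 21357 named genes and 54613 probe sets on the array. Of these, 62 were replication-dependent genes of the histone clusters (69 probe sets), 16 were variant genes (39 probe sets) and 6 were pseudogenes or other transcripts that share the prefix (7 probe sets). The replication-dependent class was set by symbol and includes testis members of the clusters, such as H1-6. A further 15 protein-coding genes that RefSeq lists under these prefixes had no probe set named for them and were not analysed here. The values are RMA-summarised intensities of single-colour Affymetrix arrays, used on a log2 scale. Total RNA came from LNCaP, an established androgen-responsive prostate cancer cell line. It had been treated with small interfering RNA to PCARNEQ, a non-coding RNA (siPCARNEQ, 3 arrays), or with a control siRNA to EGFP, a fluorescent protein absent from human cells (siEGFP, 3 arrays). The level of PCARNEQ itself was not analysed here. Both groups share the cell line and treatment with an siRNA, and the labels name no separate cultures, so the spread behind each p-value is that of the arrays at hand and may be technical.

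Histones package DNA into nucleosomes. A nucleosome core holds H2A, H2B, H3 and H4, and the linker histone H1 binds the DNA between cores. The replication-dependent genes lie in clusters, are transcribed mainly in S phase and supply histones to newly copied DNA. Their transcripts end in a stem-loop instead of a poly(A) tail. Variant genes lie outside the clusters and most of them are transcribed throughout the cell cycle into polyadenylated mRNA, and their proteins replace the canonical ones at particular sites. The standard Affymetrix labelling that the labels cite primes cDNA at poly(A) tails, so the replication-dependent genes are seen here through transcripts that such priming reaches. The share of tailed transcripts was not measured. In RNA from a whole culture, fewer cells in S phase and less histone mRNA per cell cannot be told apart. Cluster genes are also near-identical in sequence, and 20 of the 69 replication-dependent probe sets were annotated to several genes.

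The median of every array was 7.03 on the log2 scale, and values under it were treated as possibly background. Array 1 stood apart in both groups. Log2 values of siPCARNEQ array 1 differed from those of the other siPCARNEQ arrays with an SD of 0.371 to 0.373 over probe sets, while the other siPCARNEQ arrays differed from each other with an SD of 0.136. For siEGFP these SDs were 0.232 to 0.239 and 0.129. The 3' control probe set of ACTB exceeded the 5' one, a sign of how intact the RNA was, by 1.84 (log2) on siPCARNEQ array 1 and 0.68 to 0.69 on the other siPCARNEQ arrays, against 0.63 to 0.78 on the siEGFP arrays. The 7 measured luminal prostate and LNCaP markers averaged 12.43 to 12.45 on siPCARNEQ arrays, against 11.84 to 11.92 on siEGFP arrays. Of these, KLK3, HOXB13, TMPRSS2, KRT8 and KRT18 rose, by 0.45 to 1.15, and KLK2 and FOLH1 did not pass. Of 5 fibroblast markers, 2 were below the median on all arrays, while COL1A1 and LUM rose by 1.11 and 1.39, and the mean over the 5 was 7.56 to 7.66 on siPCARNEQ arrays and 6.97 to 7.17 on siEGFP arrays. COL1A2 was below the array median on every array, and the part of the luminal and fibroblast markers in the histone results was not tested. PTPRC, the pan-leukocyte marker, was at 5.03 to 5.12 on siPCARNEQ arrays and 5.04 to 5.12 on siEGFP arrays. Means over the measured basal (2 genes), immune (3) and endothelial (3) markers were 6.56 to 6.74, 6.21 to 6.25 and 6.39 to 6.52 on siPCARNEQ arrays, against 6.12 to 6.28, 6.25 to 6.27 and 6.43 to 6.73 on siEGFP arrays.

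Most calls among the replication-dependent histone genes were falls in siPCARNEQ cells. Of their 69 probe sets, 22 fell, 1 rose and 46 did not pass (limma, Benjamini-Hochberg adjusted p below 0.05 over all 54613 probe sets). The share that fell was 31.9%, beside 8.61% of all probe sets tested, and the share that rose was 1.45%, beside 9.92%. The median change was -0.27 on the log2 scale, against -0.013 for all probe sets, and 53 of the 69 values were negative. In 36 of the 69 all siPCARNEQ arrays lay below all siEGFP arrays, a share of 52.2% beside a background of 19.1%, and in 4 they lay above (background 18.6%). Calls were more frequent at higher signal, and 51 of the 69 lay above the array median. Of those 51, 17 fell (33.3%, beside 14.9% of all probe sets above the median), and of the 18 below it 5 fell (27.8%, beside 2.30%). In 27 of the 51 all siPCARNEQ arrays lay below all siEGFP arrays (52.9%, beside 26.7% of all probe sets above the median). Of the probe sets of 1 gene 15 of 49 fell, and of those of several genes 7 of 20. Of the 39 variant probe sets 5 rose (12.8%), 2 fell (5.13%) and 32 did not pass, and their median change was -0.040. Over all 115 probe sets, 31 changed (background 18.5%), 25 down and 6 up. The difference between the classes is given as counts and medians and was not tested itself.

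**Figure D1:**
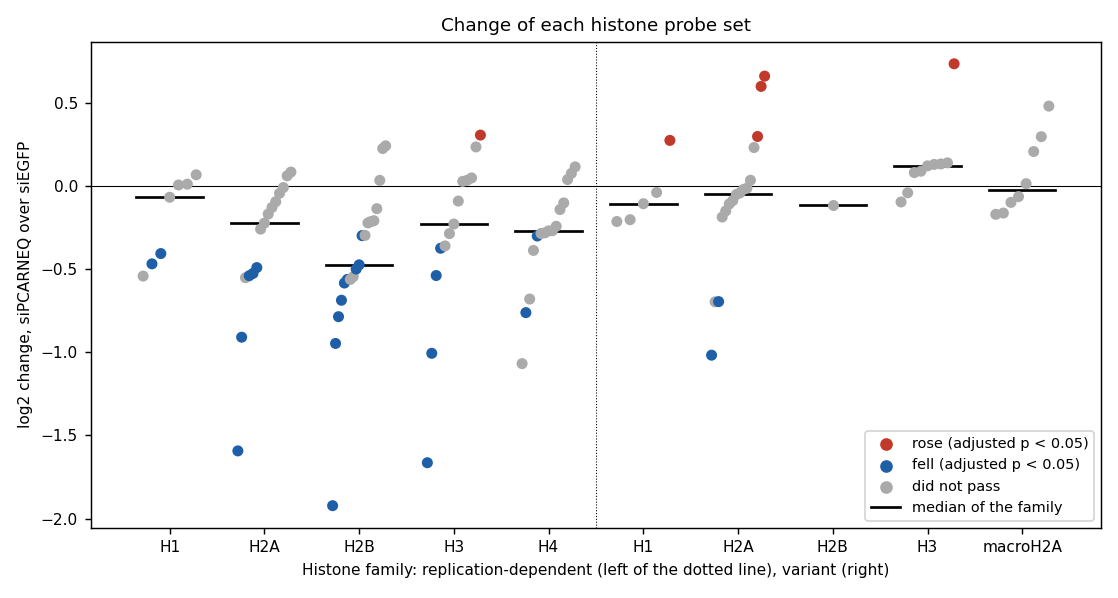
Log2 change (siPCARNEQ over siEGFP) of each histone probe set, by family, with replication-dependent families on the left and variant families on the right. Each point is 1 probe set, coloured by its call, and bars mark family medians. The lowest point, at -1.92, is H2BC11, and the highest, at 0.73, is a probe set of H3-3A and H3-3B.

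The number of calls depended on single arrays, mostly on the siEGFP side. Without siEGFP array 1, 15 replication-dependent probe sets passed, and without siEGFP array 2 or array 3, 10 passed, against 23 with all arrays. Calls also became fewer over all probe sets. The class shares that fell without siEGFP array 1, 2 or 3 were 20.3%, 14.5% and 14.5%, beside 6.64%, 5.09% and 5.08% of all probe sets. With all arrays these shares were 31.9% and 8.61%. When arrays 2 and 3 were merged into 1 replicate in each group, 4 passed, all of them falls (5.80%, beside 2.16% of all probe sets). These 4 were the probe sets 214502_at, 207156_at, 206110_at and 205967_at of the H2B, H2A, H3 and H4 families described next, with adjusted p of 0.0283, 0.0219, 0.0386 and 0.0444 under that setting.

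The H2B genes, partners of H2A in its dimer, held the most falls: 9 of 19 probe sets fell and 0 rose (2 had a positive change at an unadjusted p below 0.05 in limma), with a family median of -0.48. These falls were 47.4% of the family, beside 8.61% of all probe sets and 14.9% of those above the array median, where 16 lay. H2BC11 (214502_at) had the largest change of any histone probe set. It was at 5.80, 6.38 and 6.42 on siPCARNEQ arrays, against 7.96, 8.20 and 8.20 on siEGFP arrays. The groups did not overlap, all siPCARNEQ values were below the array median, and H2BC11 fell by 1.92 (SE 0.18, adjusted p = 0.000672). A probe set shared by H2BC11 and H2BC8 (210387_at) was far brighter and did not follow, at 12.23, 12.10 and 12.09 on siPCARNEQ arrays and 11.94, 11.88 and 11.92 on siEGFP arrays (0.22, adjusted p = 0.0804). A second probe set for this pair of genes, 215779_s_at, had a change of -0.30 (adjusted p = 0.391), with 10.26 on siPCARNEQ array 1 and up to 11.05 on the other siPCARNEQ arrays, against 11.01 to 11.16 on siEGFP arrays. H2BC5 fell in both of its probe sets, by 0.79 (SE 0.14, adjusted p = 0.00879) in 209911_x_at and by 0.30 in 222067_x_at. The 209911_x_at values were 12.37, 11.81 and 12.08 in siPCARNEQ, against 12.91, 12.83 and 12.88 in siEGFP. H2BC4 (236193_at), at 10.89, 10.63 and 10.62 in siPCARNEQ and 11.35, 11.26 and 11.23 in siEGFP, fell by 0.56 (SE 0.10, adjusted p = 0.00794). The other probe sets that fell were 2 of the 3 that cover H2BC4, H2BC6, H2BC7, H2BC8 and H2BC10 together, and those of H2BC6, H2BC9 and H2BC17, by 0.48 to 0.95. H2BC12 (209806_at), the brightest H2B probe set, and H2BC21 (202708_s_at) had changes of -0.22 and 0.24 and did not pass.

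Among the H2A genes, which pair with H2B, 5 of 15 probe sets fell and 0 rose (none had a positive change at an unadjusted p below 0.05 in limma). Falls made up 33.3% of the family, beside 8.61% of all probe sets and 14.9% of those above the array median, where 13 lay. The probe set 207156_at, annotated to H2AC11, H2AC12, H2AC13, H2AC15, H2AC16 and H2AC17, was at 8.92, 8.86 and 8.69 in siPCARNEQ, against 10.35, 10.47 and 10.42 in siEGFP. It fell by 1.59 (SE 0.09, adjusted p = 0.000159), the smallest p of all histone probe sets. A second probe set for the same 6 genes, 214542_x_at, fell by 0.49 (adjusted p = 0.0254), so the size depended on the probes. The probe set of H2AC17 alone (214481_at) was at 9.77, 9.83 and 9.77 in siPCARNEQ and 10.33, 10.34 and 10.29 in siEGFP, with little spread in either group, and fell by 0.53 (SE 0.07, adjusted p = 0.0023). H2AC25 (221582_at), a gene of a small cluster, was at 11.39, 11.49 and 11.57 in siPCARNEQ and 12.01, 11.99 and 12.08 in siEGFP, and fell by 0.54 (SE 0.08, adjusted p = 0.0038). Its other probe set, 231681_x_at, had a mean of 6.66, below the array median, and overlapping groups (-0.17, adjusted p = 0.53). H2AC16 fell by 0.91 (SE 0.24), with a mean below the array median. The brightest H2A probe sets, 214290_s_at and 218280_x_at for H2AC18 and H2AC19, moved by 0.08 and 0.06 and did not pass.

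H2BC11 and H2AC11 are divergent neighbours, and their promoter windows of 300 bases (RefSeq, GRCh38.p14) share 253 bases. That window, and those of H3C2 and H2AC17, are shown because they belong to genes with falls described here. Capitals mark matches, on either strand, to CCAAT (the box bound by NF-Y), TATAAA (the TATA box) and ATTTGCAT (the octamer bound by OCT1, known as the element of H2B promoters that acts in S phase). The windows are chr6:27132746-27133045, minus strand for H2BC11, chr6:26032050-26032349, minus strand for H3C2 and chr6:27893136-27893435, minus strand for H2AC17, each read 5′ to 3′ in the gene's direction.
H2BC11: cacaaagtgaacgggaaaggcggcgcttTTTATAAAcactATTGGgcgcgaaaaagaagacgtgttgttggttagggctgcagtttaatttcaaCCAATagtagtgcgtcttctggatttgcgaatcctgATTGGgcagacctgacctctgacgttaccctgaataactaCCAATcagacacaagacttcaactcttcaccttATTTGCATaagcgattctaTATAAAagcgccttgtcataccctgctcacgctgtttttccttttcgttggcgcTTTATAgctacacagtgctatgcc
H3C2: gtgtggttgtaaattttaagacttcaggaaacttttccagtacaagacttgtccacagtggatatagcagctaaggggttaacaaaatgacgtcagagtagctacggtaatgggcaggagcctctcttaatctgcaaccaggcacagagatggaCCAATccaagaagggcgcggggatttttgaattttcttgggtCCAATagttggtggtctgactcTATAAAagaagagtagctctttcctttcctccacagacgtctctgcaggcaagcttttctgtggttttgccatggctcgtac
H2AC17: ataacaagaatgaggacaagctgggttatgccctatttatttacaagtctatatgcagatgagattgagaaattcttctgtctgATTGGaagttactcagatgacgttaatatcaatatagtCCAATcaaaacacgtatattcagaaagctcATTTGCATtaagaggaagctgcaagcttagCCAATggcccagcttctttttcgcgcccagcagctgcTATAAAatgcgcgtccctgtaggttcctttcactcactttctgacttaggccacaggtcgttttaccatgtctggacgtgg
The H2BC11 window holds 4 CCAAT matches, 4 TATAAA matches, some of them overlapping, and 1 octamer. Positions relative to a transcription start were not examined, so a TATAAA match need not be a TATA box of H2BC11. The H3C2 window holds 2 CCAAT matches, 1 TATAAA and 0 octamers, and that of H2AC17 holds 3, 1 and 1.

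These motifs were common in the windows of the whole class, whether or not a gene fell. Promoter windows were found for 57 of the 62 replication-dependent genes, 61 windows in all. CCAAT was in 83.6% of them, TATAAA in 65.6% and the octamer in 37.7%, beside 34.6%, 11.5% and 1.77% of all 35116 windows. The octamer was in 77.8% of H2B windows and 61.5% of H2A windows, but in 1 of 11 H3 windows and in 0 of 13 H4 and 0 of 6 H1 windows. CCAAT was in every window of the H1, H2A, H2B and H3 genes and in 3 of 13 H4 windows. Genes with a probe set of their own that fell had the octamer in 7 of 15 windows, and those with a probe set of their own but no fall in 10 of 29. These are matches of letters and were not tested against the changes.

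The H3 genes gave 4 falls and 1 rise in 13 probe sets. The falls were 30.8% and the rise 7.69% of the family, beside 8.61% and 9.92% of all probe sets. Of all probe sets above the array median, where 6 of the 13 lay, 14.9% fell. The probe set 206110_at, which covers 10 H3C genes, was bright, at 11.57, 11.88 and 11.86 in siPCARNEQ and 12.68, 12.81 and 12.84 in siEGFP. It fell by 1.01 (SE 0.11, adjusted p = 0.00112). H3C2 (208576_s_at) was at 5.74, 6.46 and 6.36 in siPCARNEQ, against 7.43, 8.01 and 8.12 in siEGFP, and fell by 1.66 (SE 0.24, adjusted p = 0.00403). Its siPCARNEQ values were below the array median. Probe sets annotated to the same genes disagreed: 214646_at fell by 0.54 at a level below the median, while 214472_at, which also covers H2AC7, was at 10.59, 10.16 and 10.25 in siPCARNEQ and 10.11, 10.05 and 10.15 in siEGFP and did not pass (0.23, adjusted p = 0.25). H3C8 fell by 0.38. H3C6 (236278_at) was the single replication-dependent probe set that rose, at 9.76, 9.84 and 9.80 in siPCARNEQ and 9.50, 9.50 and 9.48 in siEGFP (0.30, SE 0.07, adjusted p = 0.0202). It did not pass without siPCARNEQ array 2 or 3 or siEGFP array 2 or 3 (adjusted p = 0.0677 to 0.0869), and the other H3C6 probe set, 214616_at, had a change of 0.05.

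Of the H4 genes, most of which encode the same protein, 2 of 15 probe sets fell and 0 rose (none had a positive change at an unadjusted p below 0.05 in limma). The share that fell was 13.3%, near the 8.61% of all probe sets and the 14.9% of those above the array median, where 11 of the 15 lay. The direction of the changes was less like the background. The family median was -0.27, as in the whole replication-dependent class, with 12 changes negative and 3 positive. In 8 of the 15 (53.3%) all siPCARNEQ arrays lay below all siEGFP arrays, and in 0 above. This is beside 19.1% lower among all probe sets and 26.7% among those above the array median. Some of these 8 were annotated to the same genes, so they are not separate members. The brightest probe set covering 14 H4C genes, 205967_at, was at 11.32, 11.30 and 11.43 in siPCARNEQ, against 12.11 ± 0.10 in siEGFP (SD, n = 3), where arrays 2 and 3 were at 12.15 and 12.18 and array 1 was lowest. It fell by 0.76 (SE 0.08, adjusted p = 0.00125) with no overlap. H4C11 fell by 0.30 (SE 0.08, adjusted p = 0.0469), a call lost with the replicate number as a block (adjusted p = 0.0679) and without any of the 6 arrays in turn (0.0507 to 0.125). The other probe sets annotated to the same 14 genes as 205967_at did not pass, with changes of -0.10 to -1.07. The largest of these, 207046_at, was at 6.67, 8.15 and 8.19 in siPCARNEQ and 8.36, 8.88 and 8.97 in siEGFP, with siPCARNEQ array 1 well below the rest, and it fell with the replicate number as a block (adjusted p = 0.0171).

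The replication-dependent linker histones had the family median nearest 0, at -0.07 over 7 probe sets. That median includes 2 probe sets of the testis member H1-6, at means of 7.10 and 7.39, close to the array median. Their changes were 0.005 and 0.07, so the family median does not describe H1-2, H1-3 and H1-5. In 3 of the 7 (42.9%) all siPCARNEQ arrays lay below all siEGFP arrays, beside 19.1% of all probe sets and 26.7% of those above the array median. H1-2 (209398_at), the brightest, was at 13.91, 13.39 and 13.37 in siPCARNEQ, against 14.31, 13.98 and 14.01 in siEGFP. The groups did not overlap, but the change of -0.54 (SE 0.17) did not pass (adjusted p = 0.0679), while H1-2 fell with the replicate number as a block (adjusted p = 0.00814). H1-3 (214537_at) was at 7.15, 7.30 and 7.41 in siPCARNEQ and 7.93, 7.63 and 7.72 in siEGFP (-0.47, SE 0.11, adjusted p = 0.0252). H1-5 (214534_at), below the array median throughout, was at 6.40, 6.31 and 6.19 in siPCARNEQ and 6.81, 6.73 and 6.58 in siEGFP (-0.41, SE 0.09, adjusted p = 0.0244). H1-3 was not called without siPCARNEQ array 2 or siEGFP array 1 or 3 (adjusted p = 0.0678 to 0.0785), and H1-5 not without siPCARNEQ array 2 or 3 or siEGFP array 1 or 2 (0.0708 to 0.097). H1-1, H1-4 and H1-6 had changes between -0.07 and 0.07.

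**Figure D2:**
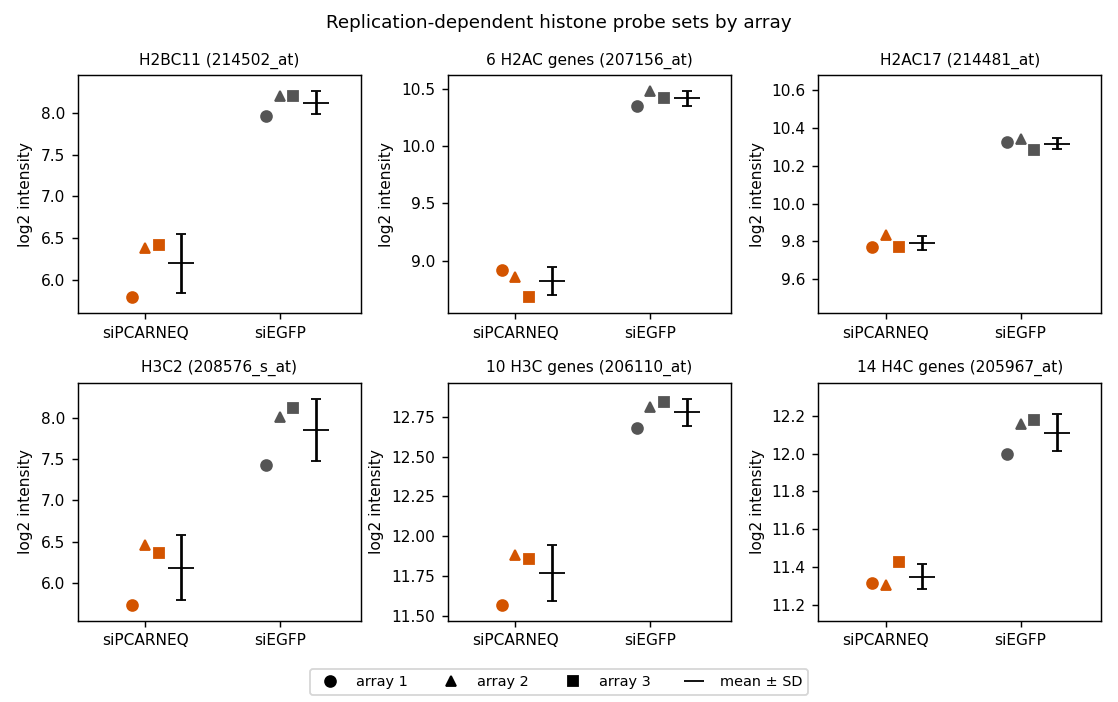
Log2 intensity of 6 replication-dependent probe sets on each array, with siPCARNEQ on the left and siEGFP on the right of each panel, and the mean ± SD of 3 arrays beside the points. Axis ranges differ between panels. Each panel shows the probe set with the smallest p for its gene, or among the several-gene probe sets of its family. In all 6 panels the siPCARNEQ arrays lie below the siEGFP arrays, a separation that this choice favours. Other probe sets of several genes in these families overlap between the groups or lie higher in siPCARNEQ. In H2BC11, H3C2 and the probe set of 10 H3C genes, array 1 is the lowest of its group in both groups.

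Array 1 of siPCARNEQ was lower than the rest for many replication-dependent probe sets. Set against each probe set's siEGFP mean, the class median was -0.43 on siPCARNEQ array 1, -0.17 on array 2 and -0.21 on array 3, against -0.05, 0.02 and 0.03 on the siEGFP arrays. In 14 of the 69 (20.3%), siPCARNEQ array 1 lay over 0.5 below both other siPCARNEQ arrays, beside 6.13% of all probe sets and 2 of the 39 variant ones. This is the array with the raised 3' to 5' difference of ACTB. With array 1 of both groups left out, a setting chosen after seeing the data, 36 replication-dependent probe sets fell and 4 rose, and all 23 calls made with all arrays stood among them. Calls were more frequent over the whole array too under that setting, where 14.7% of all probe sets fell and 16.6% rose. The variant medians were 0.08, -0.03 and -0.03 on siPCARNEQ arrays and 0.00, -0.01 and 0.00 on siEGFP arrays.

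**Figure D3:**
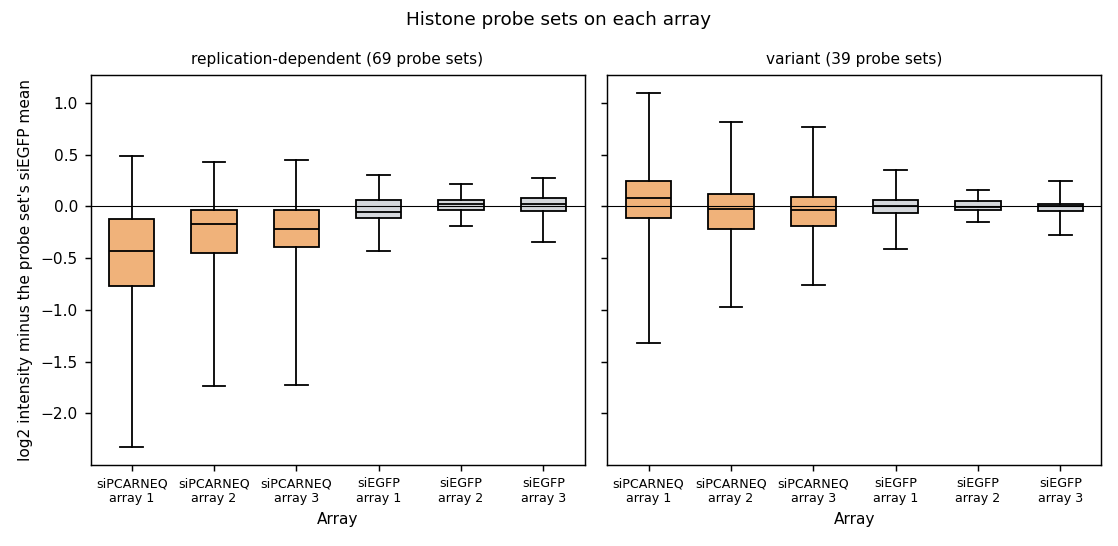
Distribution over probe sets of the log2 intensity minus the same probe set's siEGFP mean, for each array, in the replication-dependent class (left, 69 probe sets) and the variant class (right, 39). Boxes span the quartiles with the median as a line, and whiskers reach the lowest and highest probe set. Medians of the replication-dependent class are -0.43, -0.17 and -0.21 on the siPCARNEQ arrays.

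Among the variants, H2AX and H2AJ moved in opposite directions. H2AX, the variant phosphorylated around DNA breaks, is known to make both a stem-loop and a polyadenylated transcript. Its brightest probe set, 205436_s_at, was at 12.73, 12.63 and 12.73 in siPCARNEQ, against 13.43, 13.36 and 13.39 in siEGFP, with SDs of 0.06 and 0.03. H2AX fell there by 0.70 (SE 0.07, adjusted p = 0.000993), and in 212525_s_at by 1.02 (SE 0.15, adjusted p = 0.00392). Values in 212525_s_at were 9.28, 9.63 and 9.85 in siPCARNEQ and 10.48, 10.66 and 10.68 in siEGFP. The fall in 205436_s_at also passed with arrays 2 and 3 merged (adjusted p = 0.0414), while that in 212525_s_at did not (adjusted p = 0.0554). The remaining H2AX probe sets, 213344_s_at and 212524_x_at, had changes of -0.11 and -0.02 and did not pass.

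H2AJ, a mammalian H2A variant known to accumulate in senescent human fibroblasts, rose in 3 of its 4 probe sets. In 220936_s_at it was at 8.82, 9.10 and 9.06 in siPCARNEQ and 8.14, 8.37 and 8.49 in siEGFP (0.66, SE 0.12, adjusted p = 0.00968). In 228213_at it was at 8.79, 9.00 and 8.87 in siPCARNEQ and 8.05, 8.43 and 8.38 in siEGFP (0.60, SE 0.12, adjusted p = 0.0141). The groups did not overlap in any of the 4. The bright probe sets gave smaller differences, 0.30 in 224301_x_at (adjusted p = 0.0213) and 0.23 in 225245_x_at (adjusted p = 0.0647), both at means above 13. With arrays 2 and 3 merged neither 220936_s_at nor 228213_at passed (adjusted p = 0.101 and 0.109), and 228213_at was at adjusted p = 0.0504 without siPCARNEQ array 2.

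H1-10 (204805_s_at), a linker histone variant also called H1X, was at 11.95, 11.91 and 11.95 in siPCARNEQ and 11.75, 11.62 and 11.61 in siEGFP. It rose by 0.27 (SE 0.07, adjusted p = 0.0423), a call lost without siPCARNEQ array 2 or 3 or siEGFP array 2 or 3 (adjusted p = 0.097 to 0.156). The oocyte and testis linker histones H1-8 and H1-7 averaged below the array median and did not pass.

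The H3.3 genes H3-3A and H3-3B, which encode the same protein from different transcripts, were among the brightest histone genes. In 7 of their 9 probe sets the level lay between 13.75 and 14.66 on every array and the change between -0.04 and 0.14, none of which passed. The exception was 211998_at, a dimmer probe set, at 9.98, 9.44 and 9.43 in siPCARNEQ and 9.02, 8.74 and 8.89 in siEGFP. It rose by 0.73 (SE 0.16, adjusted p = 0.0211), the largest rise of any histone probe set, and did not pass without siEGFP array 2 or 3 (adjusted p = 0.0889 and 0.0773). The probe set 213826_s_at, annotated to H3-3A alone, was near the array median (change -0.10).

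H2A.Z, the variant placed at promoters, is encoded by H2AZ1 and H2AZ2, and none of their 6 probe sets passed in the fit of all arrays without a block. H2AZ1 in 213911_s_at was at 14.54, 14.74 and 14.72 in siPCARNEQ and 14.57, 14.69 and 14.63 in siEGFP, so the groups overlapped (0.03, SE 0.09). The H2AZ2 probe set 227085_at had the widest change, at 9.50, 10.23 and 10.25 in siPCARNEQ and 10.53, 10.76 and 10.77 in siEGFP (-0.70, adjusted p = 0.059). This probe set fell with the replicate number as a block (adjusted p = 0.0138), without siPCARNEQ array 1 (0.0142) and with arrays 2 and 3 alone (0.00159). The brightest H2AZ2 probe sets had changes of -0.15 and -0.05. The macroH2A genes, whose proteins carry a large extra domain and mark silent chromatin, had 0 of 8 probe sets called and 0 at an unadjusted p below 0.05 in limma. The brightest MACROH2A1 probe set, 207168_s_at, was at 13.55, 13.63 and 13.61 in siPCARNEQ and 13.66, 13.68 and 13.66 in siEGFP (-0.07, SE 0.07). Next came 214501_s_at, lower on all siPCARNEQ arrays (-0.16, adjusted p = 0.18), and 226840_at, higher on all of them (0.30, adjusted p = 0.266). A dim one, 214500_at, was at 7.05, 8.01 and 7.96 in siPCARNEQ and 6.78, 7.35 and 7.44 in siEGFP (0.48, adjusted p = 0.327), and rose with the replicate number as a block (adjusted p = 0.0218). MACROH2A2 was at 11.27, 10.79 and 10.82 in siPCARNEQ and 11.34, 10.91 and 10.93 in siEGFP (-0.10). H2BW2, the testis H2B variant, was below the array median.

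**Figure D4:**
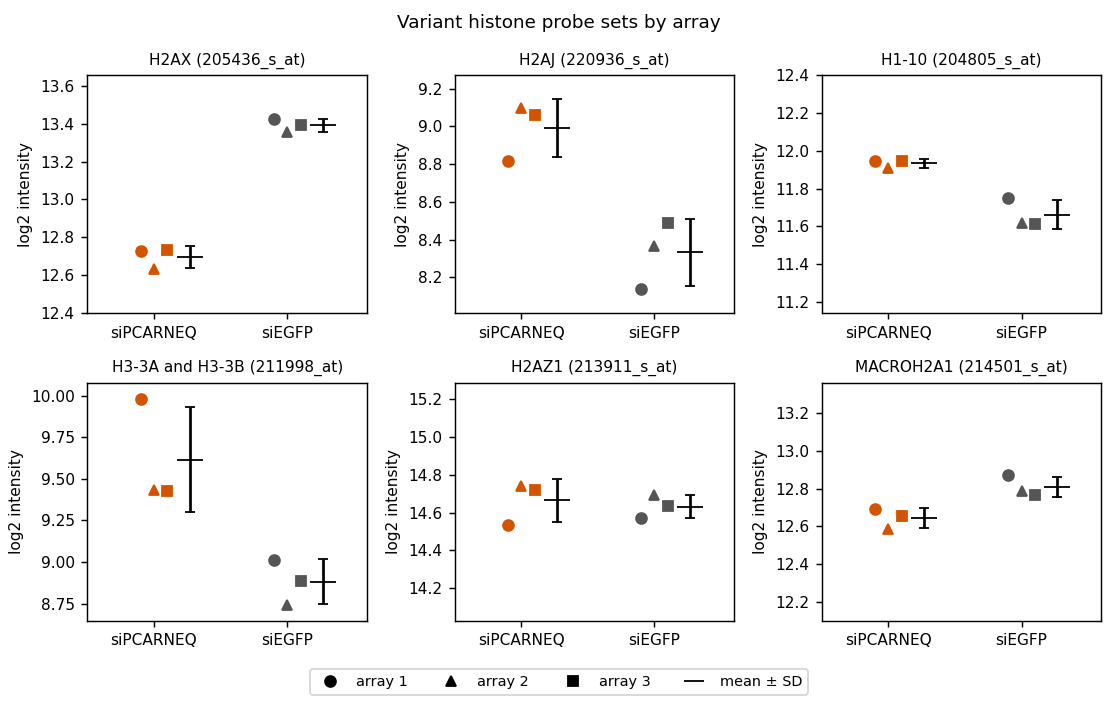
Log2 intensity of 6 variant probe sets on each array, with siPCARNEQ on the left and siEGFP on the right of each panel, and the mean ± SD of 3 arrays beside the points. Axis ranges differ between panels. Each panel shows the probe set with the smallest p for its gene or pair of genes. H2AX is lower and H2AJ, H1-10 and the shown H3-3A and H3-3B probe set are higher in siPCARNEQ, while the H2AZ1 groups overlap.

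The windows of the variants that moved are shown for comparison with those of the cluster genes, with the same marking. They are chr11:119095416-119095715, minus strand for H2AX, chr12:14774155-14774454, plus strand for H2AJ and chr3:129316237-129316536, minus strand for H1-10, in GRCh38.p14 from RefSeq.
H2AX: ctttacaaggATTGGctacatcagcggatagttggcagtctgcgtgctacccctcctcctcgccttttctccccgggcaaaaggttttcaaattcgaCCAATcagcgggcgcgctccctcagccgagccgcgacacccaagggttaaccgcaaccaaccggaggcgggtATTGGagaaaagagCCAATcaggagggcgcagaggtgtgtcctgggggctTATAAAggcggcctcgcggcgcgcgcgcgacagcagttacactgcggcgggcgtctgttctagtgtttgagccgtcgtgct
H2AJ: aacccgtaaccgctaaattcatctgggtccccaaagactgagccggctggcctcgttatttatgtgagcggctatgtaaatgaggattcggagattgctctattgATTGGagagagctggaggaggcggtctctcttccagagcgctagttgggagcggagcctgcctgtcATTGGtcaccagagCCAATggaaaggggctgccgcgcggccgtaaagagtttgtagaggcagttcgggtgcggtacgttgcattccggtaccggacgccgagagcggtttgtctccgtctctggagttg
H1-10: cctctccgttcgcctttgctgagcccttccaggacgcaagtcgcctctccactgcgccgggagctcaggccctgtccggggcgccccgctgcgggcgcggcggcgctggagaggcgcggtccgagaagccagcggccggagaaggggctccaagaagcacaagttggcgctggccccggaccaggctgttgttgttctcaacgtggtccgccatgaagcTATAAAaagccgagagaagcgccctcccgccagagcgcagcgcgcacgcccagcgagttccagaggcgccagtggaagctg
H2AX, which fell, has 4 CCAAT matches and 1 TATAAA. H2AJ, which rose, has 3 CCAAT matches and 0 TATAAA, and H1-10 has 0 and 1. None of these windows holds the octamer. Over the 21 windows of the 16 variant genes, CCAAT was in 76.2%, TATAAA in 23.8% and the octamer in 4.76%.

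Genes that make and process histone mRNA also held more falls than rises. With 1 probe set per gene, adjusted over 19775 genes, 33 of the 58 genes in 3 lists changed, beside 27.5% of all genes (12.3% fell, 15.2% rose). The lists were chosen with earlier results of these data known, so these shares describe the lists and test nothing. Every measured gene of the lists averaged above the array median, as did 12501 of the 19775 genes. A background of genes at a like level was not computed. Of 21 measured genes of histone transcription and mRNA 3' end processing, 12 fell and 0 rose (none at an unadjusted p below 0.05 in limma), with a median change of -0.33. NPAT, the coactivator of replication-dependent histone transcription, was at 8.55, 8.80 and 8.69 in siPCARNEQ, against 9.79, 9.80 and 9.76 in siEGFP, and fell by 1.10 (SE 0.08, adjusted p = 0.000154). LSM11, a subunit particular to the U7 particle that directs histone mRNA cleavage, was at 7.27, 7.10 and 6.96 in siPCARNEQ and 8.57, 8.35 and 8.46 in siEGFP (-1.35, SE 0.10). CCNE2, a cyclin E that with CDK2 phosphorylates NPAT, was at 9.09, 9.20 and 9.27 in siPCARNEQ and 10.43, 11.04 and 11.02 in siEGFP (-1.65, SE 0.16). SLBP, which binds the stem-loop, fell by 0.26 (adjusted p = 0.0263). The other genes of this list that fell were SNRPB, SNRPF, SNRPG, CPSF2, CPSF3, CSTF2, ERI1 and UPF1, by 0.26 to 0.75. CASP8AP2, LSM10 and ZNF473 had changes of -0.02, -0.33 and -0.33 and did not pass (adjusted p = 0.927, 0.0939 and 0.233). CCNE1, the other cyclin E gene, had a change of 0.07.

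Chaperones that carry new histones to the replication fork also held more falls than rises, with 11 of 18 genes lower, 2 higher and a median of -0.56. NASP, which holds the soluble H3-H4 pool, was at 11.78, 11.76 and 11.72 in siPCARNEQ and 12.38, 12.38 and 12.42 in siEGFP (-0.64, SE 0.06, adjusted p = 0.000423). IPO4, the importin of H3-H4, fell by 0.65, and ASF1B, the chaperone that hands H3-H4 to CAF-1, by 0.65. The genes that rose were CDAN1, whose product holds ASF1 in the cytoplasm (0.63, SE 0.11), and SPTY2D1, the human relative of the yeast H3-H4 chaperone Spt2 (0.41, SE 0.07). NASP rested on a probe set that can match several transcripts: in its best gene-specific one the change was 0.07 (adjusted p = 0.552).

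Genes of variant deposition and exchange gave 5 falls (26.3%) and 3 rises (15.8%) among 19, beside 12.3% and 15.2% of all genes at any level, so the share that rose was near that background. Their median change was -0.13. ANP32E, which removes H2A.Z from chromatin, was at 10.65, 10.53 and 10.45 in siPCARNEQ and 11.96, 11.75 and 11.77 in siEGFP (-1.28, SE 0.09). RUVBL1, an ATPase of remodelling complexes, fell by 0.56 (SE 0.08). ATRX and DAXX, which together deposit H3.3, rose by 0.55 (SE 0.09) and 0.40 (SE 0.08), and ZNHIT1, a subunit of the H2A.Z-loading SRCAP complex, by 0.28 (SE 0.07). HIRA, the other H3.3 chaperone, had a change of -0.03. Merging arrays 2 and 3 removed the calls of ATRX, DAXX, ZNHIT1 and SPTY2D1 (adjusted p = 0.0624 to 0.154).

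**Figure D5:**
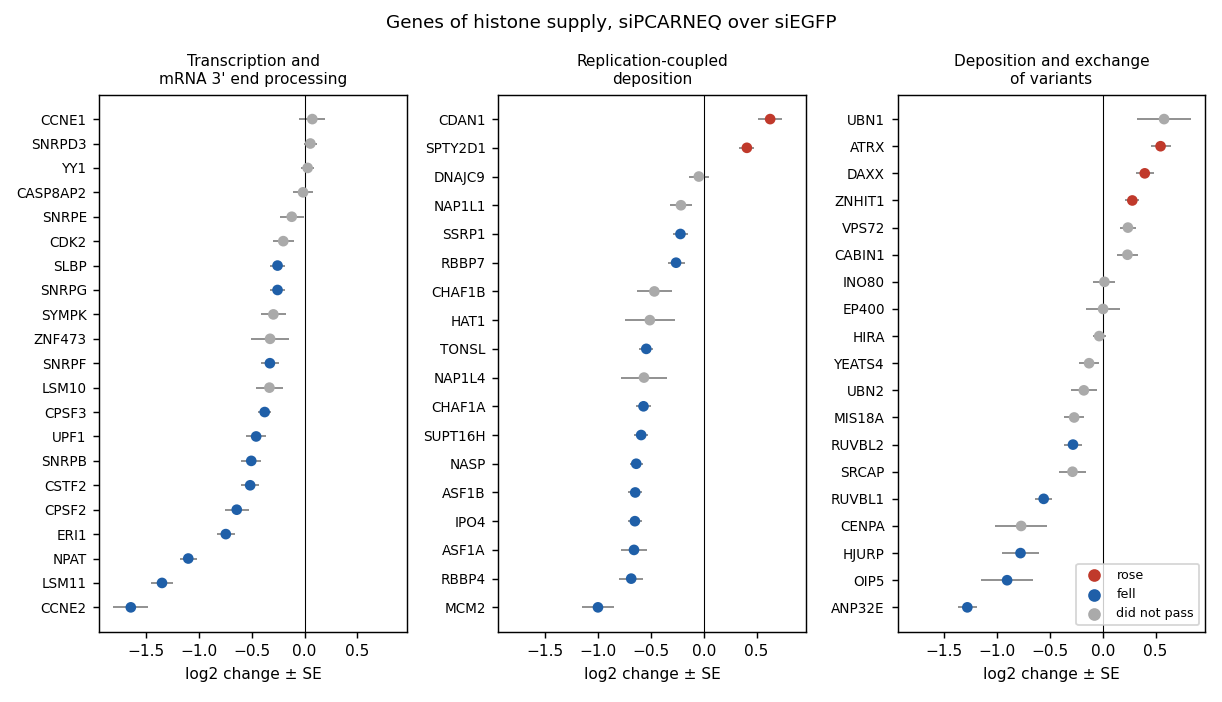
Log2 change ± SE (siPCARNEQ over siEGFP) of each measured gene in the lists of histone mRNA production (left), replication-coupled deposition (middle) and variant deposition and exchange (right), coloured by call. NPAT, LSM11 and CCNE2 lie at the lower end of the left list, and CDAN1, ATRX and DAXX are among the genes that rose.

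Of the 7 probe sets of the remaining transcripts, 1 fell, that of H2BC12L (208579_x_at, named after its value was seen), an H2B-like gene. It was at 13.00, 13.37 and 13.37 in siPCARNEQ, against 13.72, 13.81 and 13.84 in siEGFP (-0.54, SE 0.12, adjusted p = 0.0177). The others, H1-10-AS1, H1-9P, H2AC5P, H4C10P and both probe sets of H2BW4P, had changes between -0.24 and 0.04 and did not pass.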

How the data were processed

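The authors deposited 1 linear intensity per probe set and array, made with RMA (version not given), per the submitters' processing notes. The 6 arrays share 1 distribution of values, so differences in total RNA are out of reach. The intensity was taken to log2 with no pseudocount. Of 54675 probe sets, 62 Affymetrix controls were left out and 54613 tested. Genes were named from the platform annotation, and all 84 histone symbols matched RefSeq.

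The test was limma 3.58.1 (lmFit, then eBayes; R 4.3.3), 2-sided and without covariates, with Benjamini-Hochberg adjustment over all probe sets, or over 19775 genes (each by its brightest single-gene probe set) for the histone supply lists. The fit was tested on simulated data. The members and lists were chosen with earlier results of these data known. Classes follow the symbol.

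Named probe sets are the 3 with the smallest p in each family of a class, those called against the majority of their class, and the 3 largest rises and falls. From each supply list the 3 genes with the smallest p and those called in the minority direction are named. Other genes and probe sets are examples chosen after their values were seen.

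Deviations from the group means correlated at 0.47, 0.30 and 0.34 for arrays with the same replicate number, each over 0.1. Arrays 2 and 3 also correlated across numbers, at 0.37 and 0.24, and array 1 with neither (-0.44 to -0.31). The data thus set array 1 apart from arrays 2 and 3 without telling 2 from 3, and no label states a shared batch. Calls that the block changed are given. The block by replicate number was an alternative, as were each array left out, arrays 2 and 3 merged, a level filter, median centring, an intensity trend and single-transcript probe sets. Figures used matplotlib 3.10.9.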

Additional observations from a re-analysis of the deposited data

How the results depend on the processing

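The number of arrays and the absence of detection calls limited the results. Median centring, an intensity trend and a filter on the array median left every count of changed probe sets or genes within 1.5 times that of all arrays, as did the replicate number as a block (37 of 115 histone probe sets, 27 replication-dependent and 9 variant). Over all members that block added 7 calls (H1-2, H2BC3, H3C1, 208490_x_at, 207046_at, 227085_at and 214500_at) and removed 1, that of H4C11. Leaving out 1 array at a time gave 14 to 38 changed histone probe sets, against 31 with all arrays. This range was 10 to 25 for the replication-dependent class (23 with all arrays) and 4 to 12 for the variants (7 with all arrays), lowest without siEGFP array 2 or 3 and, for variants, also without siPCARNEQ array 2. Over all probe sets the share called ranged from 10.7% to 24.2% in the same way, against 18.5% with all arrays. With arrays 2 and 3 averaged, 5 histone probe sets passed, 4 replication-dependent and 1 variant, 5 of the 30 named probe sets (20 with all arrays) and 16 supply genes (33 with all arrays). With single-transcript probe sets alone, fewer were tested, and 17 of 71 histone probe sets passed, 15 of 47 replication-dependent, 2 of 18 variant, 13 of 19 named and 21 of 46 supply genes. With 1 probe set per gene, 3 of 12 variants and 12 of 14 named passed. That setting is already the one used for the supply genes. Arrays 2 and 3 alone, chosen after seeing the data, gave 53 histone probe sets, 40 replication-dependent and 12 variant. Of all probe sets, 31.3% passed with arrays 2 and 3 alone and 4.15% with arrays 2 and 3 averaged. NASP changed sign, to 0.073, with single-transcript probe sets, where another probe set stood for it.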
